A study of Rattus norvegicus with 17 samples.

Results

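The transcripts described here are the alpha globins Hba2 (ENSRNOG00000047321) and Hba1 (ENSRNOG00000029886), the beta globin Hbb (ENSRNOG00000047098) and Alas2 (ENSRNOG00000000167), 4 of the 26402 genes listed. Hba2 was selected on its measured difference between rats given enzastaurin (ENZ) and rats given vehicle, and the other members were added as transcripts of blood with results of these data known. The difference between the treatments is therefore given as a description without a p-value. All 4 members passed the filter of a median normalized count of at least 5, among 13853 genes that did.

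Hemoglobin, the oxygen carrier of red cells, is built from alpha chains and beta chains, each holding a heme group. Immature red cells (reticulocytes) still carry globin mRNA and, at a lower level, the mRNA of Alas2, the erythroid form of the enzyme that starts heme synthesis. Brain tissue taken without flushing its vessels keeps some blood, so transcripts of circulating cells can appear beside those of neurons and glia, and some neurons and glia have also been described to make globin mRNA.

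The animals were male Fischer-344 rats aged 12 months. Vehicle rats received polyethylene glycol alone, and ENZ rats received ENZ, an inhibitor of protein kinase C beta, at 25 mg/kg in the same polyethylene glycol, by daily injection under the skin over 3 days of water maze testing. All rats were tested in the maze, anesthetized with isoflurane and decapitated after the last trial, and RNA was taken from CA1/CA2 tissue of the left hippocampus. Each of the 17 rats (10 vehicle, 7 ENZ) was a separate animal with 1 library, named by group (G1 for vehicle, G2 for ENZ) and animal number.

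Vehicle rat G1_80 stood apart before any comparison, with 33422 reads on genes against 2716777 to 20731523 in the other 16 rats. A single read in it equals 103.4 normalized counts, the unit of the deposited values. It held 1 Hba2 read, 0 Hba1 reads, 0 Hbb reads and 3 Alas2 reads. Results below are for the 16 rats without it (9 vehicle, 7 ENZ), and its effect is given in turn.

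The highest Hba2 level was 4.18 times the lowest among vehicle rats and 1.51 times among ENZ rats, and the vehicle extremes were the single rats G1_44 and G1_8. In vehicle rats the Hba2 level ran from 191.3 normalized counts in G1_8 through a median of 371.4 to 799.8 in G1_44. ENZ rats lay between 251.7 in G2_116 and 379.5 in G2_62, with a median of 283.1. The ENZ values sat inside the vehicle range, the groups overlapped, and a single vehicle rat, G1_44, stood well above the next highest value of 434.0 in G1_89. The mean level was 404.7 ± 164.9 (SD, n = 9) in vehicle and 297.3 ± 45.1 (SD, n = 7) in ENZ rats, a log2 difference (ENZ minus vehicle, on normalized count + 1) of -0.37 with a standard error of 0.19. In bulk tissue, fewer cells carrying a transcript and less of it in each cell cannot be told apart.

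Hba1, the neighbouring alpha-globin gene, gave almost the same ordering of animals. Its level ran from 536.6 in G1_8 through a median of 1083 to 2021 normalized counts in G1_44 among vehicle rats, and from 707.0 in G2_116 through 839.9 to 1036 in G2_62 among ENZ rats. The same rats marked both ends of both groups as for Hba2. Group means were 1116 ± 396.6 (SD, n = 9) and 857.9 ± 114.7 (SD, n = 7), and the log2 difference was -0.31 with a standard error of 0.18. Alpha-globin genes are near-identical copies, and how reads shared between copies were counted is not given in the sources used here, so the split of reads between Hba1 and Hba2 is uncertain.

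Hbb, the beta chain, was measured from 12 to 100 reads per rat, against at least 215 for Hba2. Vehicle levels ran from 12.3 normalized counts in G1_8 through a median of 25.1 to 54.8 in G1_134, followed by 46.3 in G1_44. ENZ levels ran from 13.6 in G2_161 through 20.6 to 29.2 in G2_62. Rat G1_8 was again the lowest vehicle animal and G2_62 the highest ENZ animal, whereas the vehicle maximum passed from G1_44 to G1_134, the shallowest of the 16 libraries. Means were 28.6 ± 13.3 (SD, n = 9) and 21.5 ± 5.62 (SD, n = 7), a log2 difference of -0.32 with a standard error of 0.24. RefSeq lists 7 protein-coding genes with Hbb or Hbe symbols on rat chromosome 1 (assembly GRCr8), and the values given are those of 1 identifier only.

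Alas2 does not encode a globin, and its mRNA is made in the red cell lineage. Its level in vehicle rats ran from 8.71 normalized counts in G1_8 through a median of 19.6 to 39.3 in G1_44, and in ENZ rats from 6.18 in G2_125 through 13.1 to 22.6 in G2_62. The ends of the vehicle group were the same animals as for both alpha globins, while the lowest ENZ values, 6.18 in G2_125 and 6.82 in G2_26, lay below every vehicle rat. The groups overlapped. Means were 20.9 ± 8.22 (SD, n = 9) and 13.8 ± 6.26 (SD, n = 7), with a log2 difference of -0.61 and a standard error of 0.27. Between 6 and 85 reads per rat lay behind these levels.

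**Figure D1:**
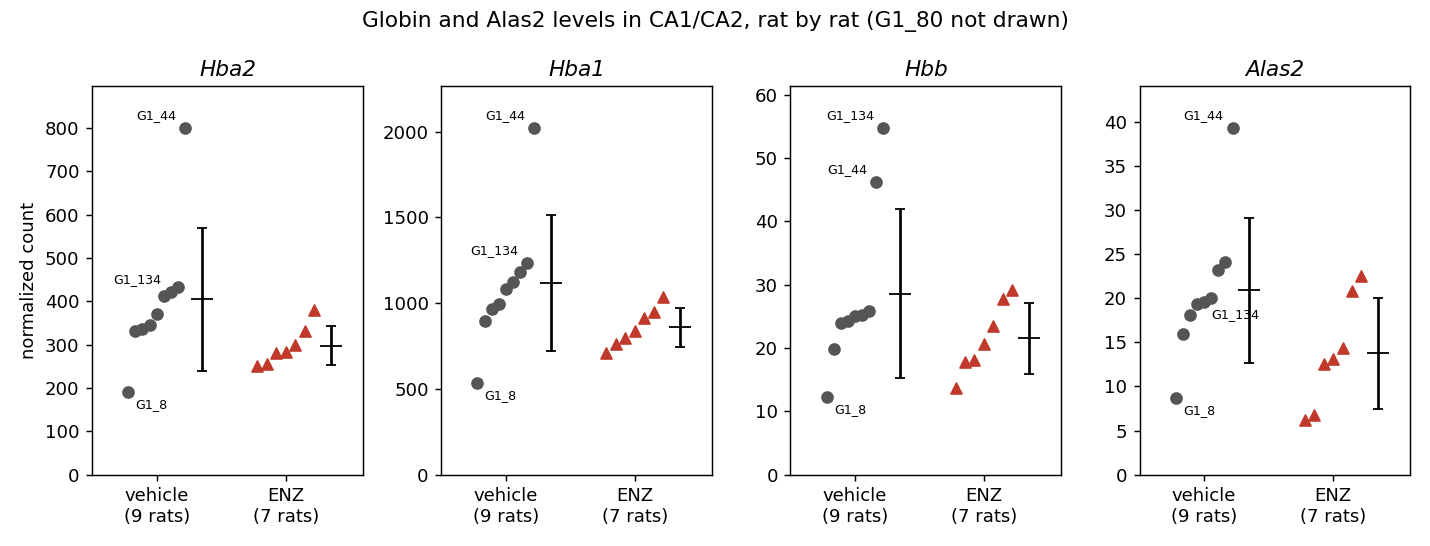
Normalized counts of Hba2, Hba1, Hbb and Alas2 (vertical axes, from 0) in each vehicle rat (grey circles, n = 9) and each ENZ rat (red triangles, n = 7), with the group mean and SD in black and rat G1_80 not drawn. Rat G1_44 was the highest for Hba2 (799.8), Hba1 (2021) and Alas2 (39.3), and G1_134 for Hbb (54.8).

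Members lay together on 1 side of their medians in most animals. In 6 rats all 4 members were above their 16-rat medians (5 vehicle, 1 ENZ), and in 6 rats all 4 were below (1 vehicle, 5 ENZ). No gene passed the test between the treatments: limma called 0 of 13853 genes (0%) at an adjusted p under 0.05, with 324 at an unadjusted p under 0.05, DESeq2 called 0 of 20796 with 309, and edgeR 0 of 13413 with 315. The members' differences belong to the contrast that selected Hba2, so nothing is read from them against that share.

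The difference between the treatments was recomputed in other sets of rats and with other terms. In the 13 rats also without G1_44, G1_134 and G1_8, the log2 difference was -0.33 (standard error 0.097) for Hba2, -0.28 (0.089) for Hba1, -0.19 (0.16) for Hbb and -0.63 (0.26) for Alas2. Without vehicle rat G1_8 alone it was -0.49, -0.44, -0.45 and -0.74. For Hba2 the study's table gives a positive log2 fold change, opposite in sign to these values. Its size was close to that in the 13 rats, whose mean counts the table holds. That table does not say which group was subtracted, so its sign is not read as a disagreement in direction. Signs changed in a few of the alternatives. With rat G1_80 included, the log2 difference was -0.18 for Hba2, 0.69 for Hba1, 0.16 for Hbb and -0.997 for Alas2, so that Hba1 and Hbb turned positive. Without vehicle rat G1_44 it was -0.23 for Hba2 and -0.20 for Hba1, and without vehicle rat G1_134 it was -0.19 for Hbb. With the level of Hbb as a term, an alternative chosen after seeing the data, it was -0.16 (standard error 0.13) for Hba2, -0.13 (0.13) for Hba1 and -0.37 (0.24) for Alas2, and with the level of Hba2 as a term it was 0.04 (0.18) for Hbb. These terms carry a treatment difference of the same direction and are correlated with the members, so they take up part of the difference by construction.

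The spread between animals was set beside the spread that counting of reads alone gives. The SD of the log2 level over 16 rats was 0.45 for Hba2 against 0.07 from counting alone, and 0.42 against 0.04 for Hba1. For Hbb it was 0.53 against 0.27, and for Alas2 0.65 against 0.35, so that counting took a larger part of the less abundant transcripts. In the 13 rats without G1_80, G1_44, G1_134 and G1_8 it was 0.29 against 0.28 for Hbb, close to counting alone, with 0.25 against 0.07 for Hba2, 0.22 against 0.04 for Hba1 and 0.58 against 0.36 for Alas2. Over 16 rats, among genes within 1.5-fold of its level, the SD of Hba2 stood at percentile 97.9, Hba1 at 98.4, Hbb at 89.4 and Alas2 at 93.7. The median SD of the genes near each level was 0.13, 0.12, 0.33 and 0.36 in turn. Over all 13853 genes it was 0.20.

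Whether alpha globin, beta globin and Alas2 vary together, as transcripts carried in by a variable amount of blood would, was asked across the 16 animals. All 6 pairs were positively correlated on the log2 scale. The pair of alpha globins had a Pearson r of 0.98 (permutation p = 1e-05, the smallest that 100000 resamples can give) and a Spearman rho of 0.94 (p = 1e-05). The p-values were two-sided and were adjusted over the 10 relations computed, these pairs and each member with sequencing depth, which gave 1e-04 for this r. Reads may be shared between the near-identical alpha copies, and how far that sets this r was not tested. The same limit holds for their ratio, places and slope below.

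Levels of alpha and beta chains were also correlated. Hba2 and Hbb had an r of 0.82 (permutation p = 0.00015, adjusted 0.000375) and a rho of 0.86 (p = 8e-05), and Hba1 and Hbb an r of 0.78 (p = 0.00054, adjusted 0.00108) and a rho of 0.74 (p = 0.00203). Alas2 followed both alpha globins, with an r of 0.85 (permutation p = 2e-05, adjusted 1e-04) and a rho of 0.91 (p = 1e-05) for Hba2, and an r of 0.82 (p = 0.00015, adjusted 0.000375) and a rho of 0.84 (p = 1e-04) for Hba1. The weakest pair was that of the low-count transcripts, Hbb and Alas2, with an r of 0.68 (permutation p = 0.00467, adjusted 0.00778) and a rho of 0.79 (p = 0.00073).

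Rats G1_44 and G1_8 lay farthest from the Hba2 and Hba1 medians, and leaving out both gave an r of 0.93 for Hba2 with Hba1, 0.71 for Hba2 with Hbb, 0.82 for Hba2 with Alas2, 0.61 for Hba1 with Hbb and 0.74 for Hba1 with Alas2. All of these kept a permutation p of at most 0.0176. For Hbb with Alas2 the farthest rats from the Hbb median were G1_134 and G1_8, and r was 0.74 (permutation p = 0.0031) without them. Without G1_44 and G1_8 in their place r was 0.50 (adjusted p = 0.136, in a range of 0.00146 to 0.136 over the alternatives tried without G1_80), so the relation of Hbb with Alas2 lost its call without that pair of animals. Without G1_44, G1_134 and G1_8 together, Hba1 with Hbb had an r of 0.45 (adjusted p = 0.205, range 0.00062 to 0.205) and Hbb with Alas2 0.62 (adjusted p = 0.0521), while the other 4 pairs kept an adjusted p under 0.05.

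The correlations over 16 rats take in the difference between the treatments, the contrast that selected Hba2. With levels centred on group means and permuted within groups, r was 0.97 for Hba2 with Hba1 (adjusted permutation p = 0.0002). For Hba2 it was 0.80 with Hbb (0.00742) and 0.81 with Alas2 (0.0011). For Hba1 it was 0.76 with Hbb (0.0136) and 0.78 with Alas2 (0.00207), and Hbb with Alas2 had 0.64 (0.0136). The correlations were also computed within each treatment group. Among vehicle rats (n = 9, exact permutation test) r was 0.99 for Hba2 with Hba1 (p = 0.000267), 0.81 for Hba2 with Hbb (p = 0.0176), 0.98 for Hba2 with Alas2 (p = 0.000535), 0.84 for Hba1 with Hbb (p = 0.0128), 0.96 for Hba1 with Alas2 (p = 0.00201) and 0.73 for Hbb with Alas2 (p = 0.0347). Among ENZ rats (n = 7, exact permutation test) the corresponding values were 0.84 (p = 0.0163), 0.78 (p = 0.0359), 0.75 (p = 0.051), 0.37 (p = 0.408), 0.65 (p = 0.116) and 0.57 (p = 0.186). All were positive, and 2 of the 6 ENZ pairs had an unadjusted p under 0.05. Over 16 rats the SD of the log2 level was larger in vehicle than in ENZ rats for the globins (0.53 against 0.21 for Hba2) and smaller for Alas2 (0.54 against 0.66). Without G1_44, G1_134 and G1_8 it was smaller in vehicle for all 4 members (0.16 against 0.21 for Hba2). Whether the correlations differ between the groups was not tested.

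**Figure D2:**
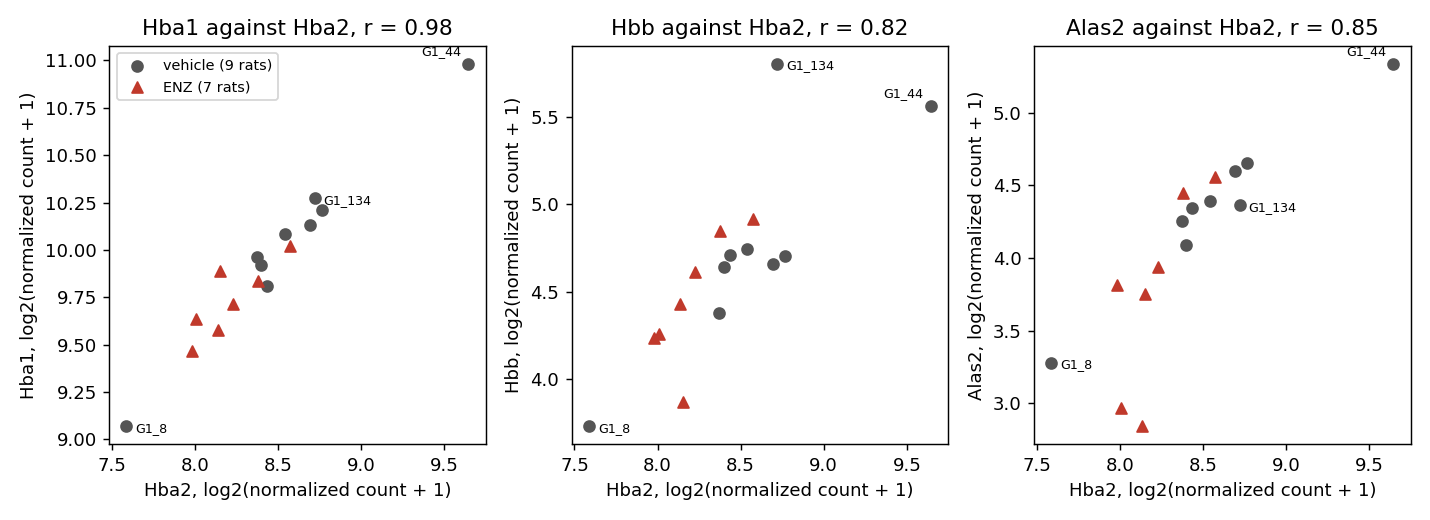
Log2 of the normalized count + 1 of Hba1, Hbb and Alas2 (vertical axes) against that of Hba2 (horizontal axes), 1 point per rat, for 9 vehicle rats (grey circles) and 7 ENZ rats (red triangles). The correlation was 0.98 for Hba1, 0.82 for Hbb and 0.85 for Alas2, with G1_44 at the upper end and G1_8 at the lower end, and G1_134 was high in Hbb for its Hba2 level.

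Sequencing depth was not correlated with any member past the threshold over the 16 rats, and its correlations moved with single rats. The r of each level with the log10 of recovered reads was -0.18 for Hba2, -0.26 for Hba1, -0.33 for Hbb and -0.03 for Alas2 (permutation p = 0.499, 0.337, 0.205 and 0.921, adjusted 0.555, 0.421, 0.293 and 0.921). The corresponding rho was -0.21, -0.27, -0.14 and -0.01 (permutation p = 0.431, 0.306, 0.614 and 0.969), and r without the pair of rats farthest from each member's median was -0.25, -0.33, 0.32 and -0.17. Without G1_44 that of Hba1 became -0.58 (adjusted p = 0.0323, in a range of 0.0323 to 0.896 over its alternatives), and without G1_8, the deepest library, it became 0.04. Among the 8 vehicle rats without G1_44, described without a test, r with depth was -0.79 for Hba2, -0.81 for Hba1, -0.83 for Hbb and -0.66 for Alas2. Without G1_8 the pairs of members kept an r of 0.63 to 0.97 with adjusted p-values from 5e-05 to 0.0232.

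Ratios of reads within a rat do not depend on the scaling between libraries. The ratio of Hba1 to Hba2 reads had a geometric mean of 2.83 and ran from 2.53 in G1_44 to 3.35 in G2_161, with an SD on the log2 scale of 0.10 against 0.08 from counting. The ratio of Hba2 to Hbb had an SD of 0.32 against 0.28 from counting, that of Hba2 to Alas2 0.41 against 0.36, and that of Hbb to Alas2 0.52 against 0.44. Reads are not corrected for gene length here, so these ratios compare rats and do not rank the genes. A few animals departed from the others. In G1_134 the ratio of Hba2 to Hbb was 7.68, against at least 11.95 in the rest, and in G2_161 it was 20.8. In G2_125 and G2_26 the ratio of Hba2 to Alas2 was 45.3 and 37.6 against a geometric mean of 21.2 over the 16 rats. Within vehicle rats the log2 level of Hba2 had an SD of 0.53, above those of its log2 ratios to Hbb (0.37) and Alas2 (0.13). Within ENZ rats the order was the other way, with an SD of 0.21 for the level, 0.26 for the ratio to Hbb and 0.58 for the ratio to Alas2. In vehicle rats counting alone gives the log2 level of Alas2 an SD of 0.29. The 0.13 lies below that, so no variation beyond counting was seen, and how constant the ratio is cannot be read from it.

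The likeness between members was set against all measured genes. Ranked by r with Hba2 among 13852 other genes, Hba1 came in place 1, Alas2 in place 3 and Hbb in place 8. The median r of all genes with Hba2 was 0.02 and the 99th percentile was 0.70. For Hba1 the places were 1 for Hba2, 3 for Alas2 and 9 for Hbb. Seen from Hbb, Hba2 came in place 2, Hba1 in place 5 and Alas2 in place 51, and seen from Alas2 the places were 2 for Hba2, 7 for Hba1 and 79 for Hbb.

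With treatment as a term of the limma fit over all genes, the level of Hba2 was followed upward by 8 of 13852 genes (0.0578%) and downward by 0 (0%) at an adjusted p under 0.05, with 1037 genes at an unadjusted p under 0.05. Hba1 had the smallest p of them, with a slope of 0.91 log2 per log2 of Hba2 (standard error 0.06, adjusted p = 3.96e-07). Alas2 had a slope of 1.13 (standard error 0.23, adjusted p = 0.0751) in place 16 and Hbb 0.97 (standard error 0.20, adjusted p = 0.0861) in place 22, and neither passed over all genes. The number of genes that follow Hba2 rested on single animals. It was 204 (200 upward) without G1_8, 209 (122 upward) without G1_8, G1_44 and G1_134, 2 without G1_44, 4 without G1_98, G1_107, G2_71 or G2_161, and 5 without G1_18 or G2_152. The adjusted p of Hba1 was at most 0.0336 under every alternative tried. Without G2_125 Alas2 passed (adjusted p = 0.035, in a range of 0.035 to 0.991 over its alternatives without G1_80), and without G1_134 Hbb did (adjusted p = 0.0295, in a range of 0.0295 to 0.991).

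Followed on Hbb, the least deeply counted globin, 0 of 13852 genes rose (0%) and 0 fell (0%) at an adjusted p under 0.05 by limma, with 847 at an unadjusted p under 0.05. Hba2 had the smallest p, with a slope of 0.65 (standard error 0.12, adjusted p = 0.643), Hba1 was in place 3 with 0.58 (0.12, adjusted p = 0.80), and Alas2 in place 75 with 0.73 (0.23, adjusted p = 0.809). Without G1_134, Hba2 had a slope of 0.89 (adjusted p = 0.00683, in a range of 0.00683 to 0.948 over the alternatives without G1_80) and was the 1 gene called.

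A further identifier without a name in the sources used here, ENSRNOG00000049424, was singled out after its values were seen because it was the gene most like both alpha globins after each other. Its level ran from 531.5 normalized counts in G1_8 to 1932 in G1_44 with a median of 895.6, and its r was 0.95 with Hba2, 0.97 with Hba1, 0.74 with Hbb and 0.87 with Alas2. The SD of its log2 ratio to Hba1 was 0.12. By the rule for named genes (medians of at least 50), ENSRNOG00000018877 was the most like Hbb, with an r of 0.90 and levels of 136.4 to 189.7. ENSRNOG00000005388, named by the same rule, had an r of 0.80 with Hbb. ENSRNOG00000006130 and ENSRNOG00000027455 ran opposite to Hbb, with an r of -0.79 and -0.76. Without G1_44 and G1_134, the rats with the highest Hbb, r with Hbb was 0.77 for ENSRNOG00000018877 and 0.51 for ENSRNOG00000005388. It was then -0.54 for ENSRNOG00000006130 and -0.67 for ENSRNOG00000027455. None of these correlations carries a p-value, since the genes were picked for them.

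With rat G1_80 included, Alas2 parted from the globins. Over 17 rats r was -0.26 for Hba2 with Alas2, -0.77 for Hba1 with Alas2 and -0.62 for Hbb with Alas2, whereas it was 0.79 for Hba2 with Hba1, 0.87 for Hba2 with Hbb and 0.95 for Hba1 with Hbb. These values were set by 1 library in which 3 reads of Alas2 equal 310.1 normalized counts. At the median share of reads in the other 16 rats, 33422 reads would hold 2.12 Hba2 reads, 5.98 Hba1 reads, 0.151 Hbb reads and 0.119 Alas2 reads. The 1 Hba2 read and the absence of Hbb reads lay within counting error of those numbers, whereas 0 Hba1 reads allow up to 3.69, under the number at the median share and above the 3.38 at the lowest share, and the 3 Alas2 reads were 25.1 times the median share (exact Poisson 95% interval 5.18 to 73.4, which covers counting error only).

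Promoters of genes with the members' names are shown, as the 250 bases before the start of each gene from RefSeq (assembly GRCr8, which is not the build the reads were aligned to). The cause of the correlations between members was not tested. The members were matched by symbol or synonym, not by identifier. Hba2 matched Hba-a2 alone, while Hba1 is a synonym of both Hba-a2 and Hba-a1 and the second was taken for it. Hbb and Alas2 matched by symbol, and which of the beta-globin copies the Hbb identifier stands for could not be checked. Capitals mark matches, on either strand, to any of 4 short motifs known from globin promoters. These were TATAAA of the core promoter, the general promoter motif CCAAT, the motif CACCC read by erythroid Kruppel-like factors, and GATAA, the letters read by GATA factors of the red cell lineage.
Hba-a2 (chr10:15829139-15829388, minus strand): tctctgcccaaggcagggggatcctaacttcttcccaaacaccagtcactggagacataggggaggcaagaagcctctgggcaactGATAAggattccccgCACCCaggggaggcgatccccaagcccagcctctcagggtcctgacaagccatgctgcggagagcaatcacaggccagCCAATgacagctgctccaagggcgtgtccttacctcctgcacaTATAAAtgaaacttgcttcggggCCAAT
Hba-a1 (chr10:15842581-15842830, minus strand): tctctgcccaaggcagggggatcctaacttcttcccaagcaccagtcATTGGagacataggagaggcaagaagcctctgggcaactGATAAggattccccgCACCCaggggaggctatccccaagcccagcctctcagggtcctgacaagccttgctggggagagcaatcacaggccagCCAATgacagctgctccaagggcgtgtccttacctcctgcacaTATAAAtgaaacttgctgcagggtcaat
Hbb (chr1:167663722-167663971, minus strand): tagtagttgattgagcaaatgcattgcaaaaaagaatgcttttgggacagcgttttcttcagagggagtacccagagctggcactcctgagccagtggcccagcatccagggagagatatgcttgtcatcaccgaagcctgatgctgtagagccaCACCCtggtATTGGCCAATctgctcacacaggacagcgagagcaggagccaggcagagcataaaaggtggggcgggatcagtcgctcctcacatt
Alas2 (chrX:22895200-22895449, plus strand): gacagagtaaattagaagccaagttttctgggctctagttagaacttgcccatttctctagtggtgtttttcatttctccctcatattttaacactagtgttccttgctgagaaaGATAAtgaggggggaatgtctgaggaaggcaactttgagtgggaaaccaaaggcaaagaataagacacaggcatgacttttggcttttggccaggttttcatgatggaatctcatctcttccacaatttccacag
The alpha-globin promoters were the same at 241 of 250 positions (96.4%), and each held TATAAA 1 time, CCAAT 2 times, CACCC 1 time and GATAA 1 time. The Hbb window held CCAAT 2 times and CACCC 1 time, and the Alas2 window held GATAA 1 time, while no other of the 4 motifs was in these windows. Of 33469 promoters of this length, 12.9% held TATAAA, 34.02% CCAAT, 49.2% CACCC and 23.5% GATAA. A match is a description of the sequence, and no binding was measured.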

How the data were processed

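RNA sequencing of CA1/CA2 was analysed in 17 rats, without 1 further rat that the study randomized to ENZ. The authors removed outlier samples found by principal components before their own test, without naming them. The 13 rats used as an alternative (without G1_80, G1_44, G1_134 and G1_8) gave the mean counts of the study's 5 tabulated genes within 3.91e-08% once size factors were recomputed within them, so those means are on another scale than the deposited values. The mean counts in the study's table are thus those of these 13 rats, 6 vehicle and 7 ENZ. The paper describes fewer rats as removed and states equal group sizes, and this mismatch was not resolved. After adapter trimming (AlienTrimmer), the authors aligned reads to rn5 with STAR (2.4.0a), counted them per gene with featureCounts (1.4.4) and divided by DESeq2 size factors. Which annotation release and strand setting were used is not given in the sources used here. The deposited unit is this normalized count, a signal of at least 0. In all, 100% of values above 0 came out as whole reads (within 0.1 of a read) in every rat.

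Differences and slopes were fitted with limma 3.58.1 (R 4.3.3, trend) on log2 of the normalized count + 1 for genes whose median was at least 5, with Benjamini-Hochberg adjustment over all genes tested. edgeR 4.0.16 and DESeq2 1.42.0 were run on the recovered reads. Correlations used permutation tests with 100000 resamples, exact within groups (Python 3.11.15, scipy 1.17.1). The fits were tested on simulated data, whose outcome is not given here, so nothing is read from it.

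The members and lists were chosen with earlier results of these data known. Named genes were the members and those most like or unlike Hbb, and 1 more was named after its values were seen. The study's table pairs Hba2 with its identifier, and the names of the other 3 members came with the choice of members and could not be checked. The RefSeq gene table matched 0 identifiers, so lists of red cell, white cell, vessel, choroid plexus and neuron markers were not analysed here, and the part of other blood or vessel transcripts was not tested.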

Additional observations from a re-analysis of the deposited data

Results flagged for a closer look

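Of 12 groups of rats examined for a value far from the rest (each member in 9 vehicle rats, in 10 vehicle rats with G1_80, and in 7 ENZ rats), 3 held one, where chance gives about 1 group in 20. All 3 were vehicle groups with G1_80, and no value stood apart by this measure in the 9 vehicle or the 7 ENZ rats. The 3 rest on 1 library, and the groups of 10 contain those of 9, so they are not separate trials against that rate. In G1_80 the log2 level was 0 for Hba1 and 0 for Hbb, below all other vehicle rats, and 8.28 for Alas2, above all of them. These values come from 0, 0 and 3 reads. At the median share of the other rats G1_80 would hold 0.151 Hbb reads, so its depth alone made a Hbb level of 0 likely.

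Alas2 was also the signal seen in the library that the comparisons leave out, where its 3 reads of 33422 equal 310.1 normalized counts against at most 39.3 in the other vehicle rats. The source of those reads was not tested.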

How the results depend on the processing

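Of 471 recomputed correlations, slopes and counts of genes, 427 kept their direction and side of the threshold or, for counts, stayed within 1.5 times. Among these, the count of genes that differ between the treatments was 0 in all 27 alternatives. The count of genes that follow Hbb was 0 in 23 of 26, a tally that takes in the alternative with Hba2 in place of Hbb (8 genes). Results that lie so far from the threshold could hardly move, so they say little of stability. Over 16 rats the differences between the treatments were smaller than, or close to, the spread between rats, so a move within that spread says little of their stability. Without G1_80, 141 of 144 recomputed pair correlations kept their direction and side of the threshold. With all 17 rats, the Hba1 difference was 0.69, and the correlations of Alas2 were -0.26 (Hba2), -0.77 (Hba1) and -0.62 (Hbb). The slopes of Alas2 were then -0.58 on Hbb and -0.65 on Hba2. Depth correlations over the 17 rats were 0.59 (Hba2), 0.90 (Hba1), 0.79 (Hbb) and -0.79 (Alas2). Of 13843 genes tested in the 17 rats, 11532 followed Hbb (9013 upward, 2519 downward) and 10248 followed Hba2 (8422 upward, 1826 downward). In the 13 rats also without G1_44, G1_134 and G1_8, Hba1 with Hbb was 0.45, Hbb with Alas2 0.62, depth with Hbb 0.14 and with Alas2 0.14, and 209 genes followed Hba2, 122 upward and 87 downward, where the 8 over 16 rats were all upward. Genes following Hba2 numbered 5 with TMM scaling, 2 without a filter and 5 when medians under 50 were dropped, and 8 genes followed Hba2 where 0 followed Hbb. Without G1_44 and G1_8, chosen after seeing the data as were the alternatives for Hba2, Hbb with Alas2 was 0.50 and depth with Alas2 0.041.

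Leaving out each of the 16 rats in turn gave 0 to 1 genes following Hbb (1 without G1_134), 2 to 204 following Hba2, and depth correlations of -0.52 to 0.10 (Hba2), -0.58 to 0.038 (Hba1), -0.51 (without G1_44) to -0.071 (without G1_134) (Hbb) and -0.16 to 0.19 (Alas2). The cause was not tested.

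Depth limits Hbb and Alas2, which had as few as 12 and 6 reads in a rat. The ENZ group held 7 rats, vehicle rats G1_44 and G1_8 carry much of the range, and no red cell marker other than the 4 members could be matched to an identifier. How much blood each sample held was not measured.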
